A study of Homo sapiens with 32 samples.

Results

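WFDC1, TSPAN7, KCNH2, MFAP4, SNTB1 and AGTRAP, 6 of the 23073 genes of the deposited table, were followed across 32 RNA-seq libraries of cells given KDM1A inhibitors. They were chosen by their large differences between inhibitor and control libraries of SKNO-1, upward for some and downward for others. Their SKNO-1 differences, and all values built on them, therefore describe the choice and carry no test. All 6 passed the filter on low values (at least 1 FPKM, fragments scaled to transcript length and library size, in at least 2 libraries). KCNH2 passed it through SKNO-1 libraries alone.

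Kasumi-1 and SKNO-1 are established human acute myeloid leukaemia lines, both with a RUNX1-RUNX1T1 fusion. Cells of either line received 1 µM RN-1 (an irreversible KDM1A inhibitor), 1 µM GSK690 (a reversible one), 1 µM GSK690* (an isomer of GSK690 described as inactive) or the vehicle, 0.1% DMSO, for 24 or 72 h. This gives 16 groups of 2 libraries. Kasumi-1 grew with 20% fetal calf serum. SKNO-1 grew with 10% serum and 10 ng/mL GM-CSF, which all its groups received. The labels call the replicates biological but do not say whether they are separate cultures, so p-values measure the spread between these libraries. The main fit took a single spread per gene over all 16 groups. Each Kasumi-1 SE, interval and p-value from it therefore also holds the SKNO-1 spread, and the reverse. "Inhibitors" below means the 4 RN-1 and GSK690 libraries of a line and time, and "controls" the 4 GSK690* and DMSO libraries. For SKNO-1 the treatment protocol gives 4 days where the titles give 72 h. In bulk libraries such as these, fewer cells of a type and less RNA per cell cannot be told apart.

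KDM1A, a histone demethylase, removes methyl marks of active genes and works in repressive complexes, to which GFI1 and GFI1B bring it at blood cell genes. Its inhibitors are known for releasing myeloid genes from repression in leukaemia cells. The 6 genes have no shared pathway. WFDC1 codes for a secreted protein with a whey acidic protein domain, found in many protease inhibitors. TSPAN7 codes for a tetraspanin, a membrane protein that organizes partner proteins in the membrane. KCNH2 codes for the hERG potassium channel, best known from the heart rhythm. MFAP4 codes for an extracellular protein with a fibrinogen-related domain that associates with elastic microfibrils. SNTB1 codes for beta-1-syntrophin, an adapter of the dystrophin complex, and AGTRAP for a membrane protein that binds the angiotensin II receptor AGTR1 and promotes its internalization.

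Promoter sequences of 2 of the 6 genes, KCNH2 and AGTRAP, were matched by symbol in the RefSeq table used here, and those of WFDC1, TSPAN7, MFAP4 and SNTB1 were not. Both are shown as genes that were lower with the inhibitors in SKNO-1. They are RefSeq sequences on GRCh38.p14, from 250 bases before to 50 after the start, at chr7:150978272-150978571 (minus strand, the outermost of 5 KCNH2 entries) and chr1:11735886-11736185 (plus strand). Capitals mark a match to AGGAAG, a core motif of ETS factors such as SPI1, here on the opposite strand.
KCNH2: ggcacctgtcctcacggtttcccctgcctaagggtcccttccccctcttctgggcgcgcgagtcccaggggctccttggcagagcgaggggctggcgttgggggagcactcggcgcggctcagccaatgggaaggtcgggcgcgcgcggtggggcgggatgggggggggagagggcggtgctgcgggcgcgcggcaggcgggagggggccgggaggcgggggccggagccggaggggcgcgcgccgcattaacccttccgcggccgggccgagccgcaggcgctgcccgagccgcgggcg
AGTRAP: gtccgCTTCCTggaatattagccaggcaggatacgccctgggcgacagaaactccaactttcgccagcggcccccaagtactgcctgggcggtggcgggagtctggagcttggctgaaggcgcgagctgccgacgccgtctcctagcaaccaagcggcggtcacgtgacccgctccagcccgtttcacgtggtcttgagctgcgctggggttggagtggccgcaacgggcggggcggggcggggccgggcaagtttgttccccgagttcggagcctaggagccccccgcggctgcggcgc
Both strands were searched for the ETS motif, for the RUNX motif TGTGGT, for the GFI1 motif AATCAC and for the GATA motif AGATAA. The KCNH2 sequence held none of these letters, and the AGTRAP sequence held the ETS motif once, 245 bases before the start. Of 35116 promoters of this length, 33.65% held the ETS motif, 13.07% the RUNX motif, 10.22% the GFI1 motif and 10.33% the GATA motif. Of the other KCNH2 entries, 1 held the GFI1 motif and 1 the ETS motif.

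Read counts were not used here, so depth is unknown. FPKM summed to 332648 to 395945 per library, and replicates correlated across genes with r of 0.985 to 0.994. For the 16 libraries at 72 h, the line in the authors' sample table is the reverse of that in the titles. By the titles, which were used, 72 h and 24 h libraries of 1 line correlated with r of 0.971 to 0.985, and those of different lines with 0.845 to 0.875. Of 8 markers of such leukaemia cells (RUNX1, RUNX1T1, CD34, KIT, MPO, CD33, PTPRC and SPI1), 7 or 8 averaged at least 1 FPKM in each line, time and side. Of 14 markers of adherent and stromal cells, 1 per line reached a mean of 1 FPKM (EPCAM in Kasumi-1, 64.3 to 72.9, and ACTA2 in SKNO-1, 1.18 to 1.65). COL1A2 and PECAM1 are listed at 0 in every library, as is a second PTPRC entry, so a listed 0 need not mean absent RNA. The erythroid list of 7 summed to at most 0.307 FPKM in a library.

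On hg19, WFDC1 lies on chromosome 16 (84328251 to 84363450), TSPAN7 on chromosome X (38420622 to 38548169) and KCNH2 on chromosome 7 (150642048 to 150675403). MFAP4 lies on chromosome 17 (19286754 to 19290553), SNTB1 on chromosome 8 (121547984 to 121825513) and AGTRAP on chromosome 1 (11796140 to 11814859). The loci of 3 members overlap other entries of the gene annotation: TSPAN7 overlaps the entry named TM4SF2, MFAP4 overlaps MAPK7, and SNTB1 overlaps MTBP. Whether reads were counted by strand is not stated, so reads in the shared stretches may have been counted for either entry. TM4SF2 was at 6.25e-10 FPKM or less in every library.

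**Figure D1:**
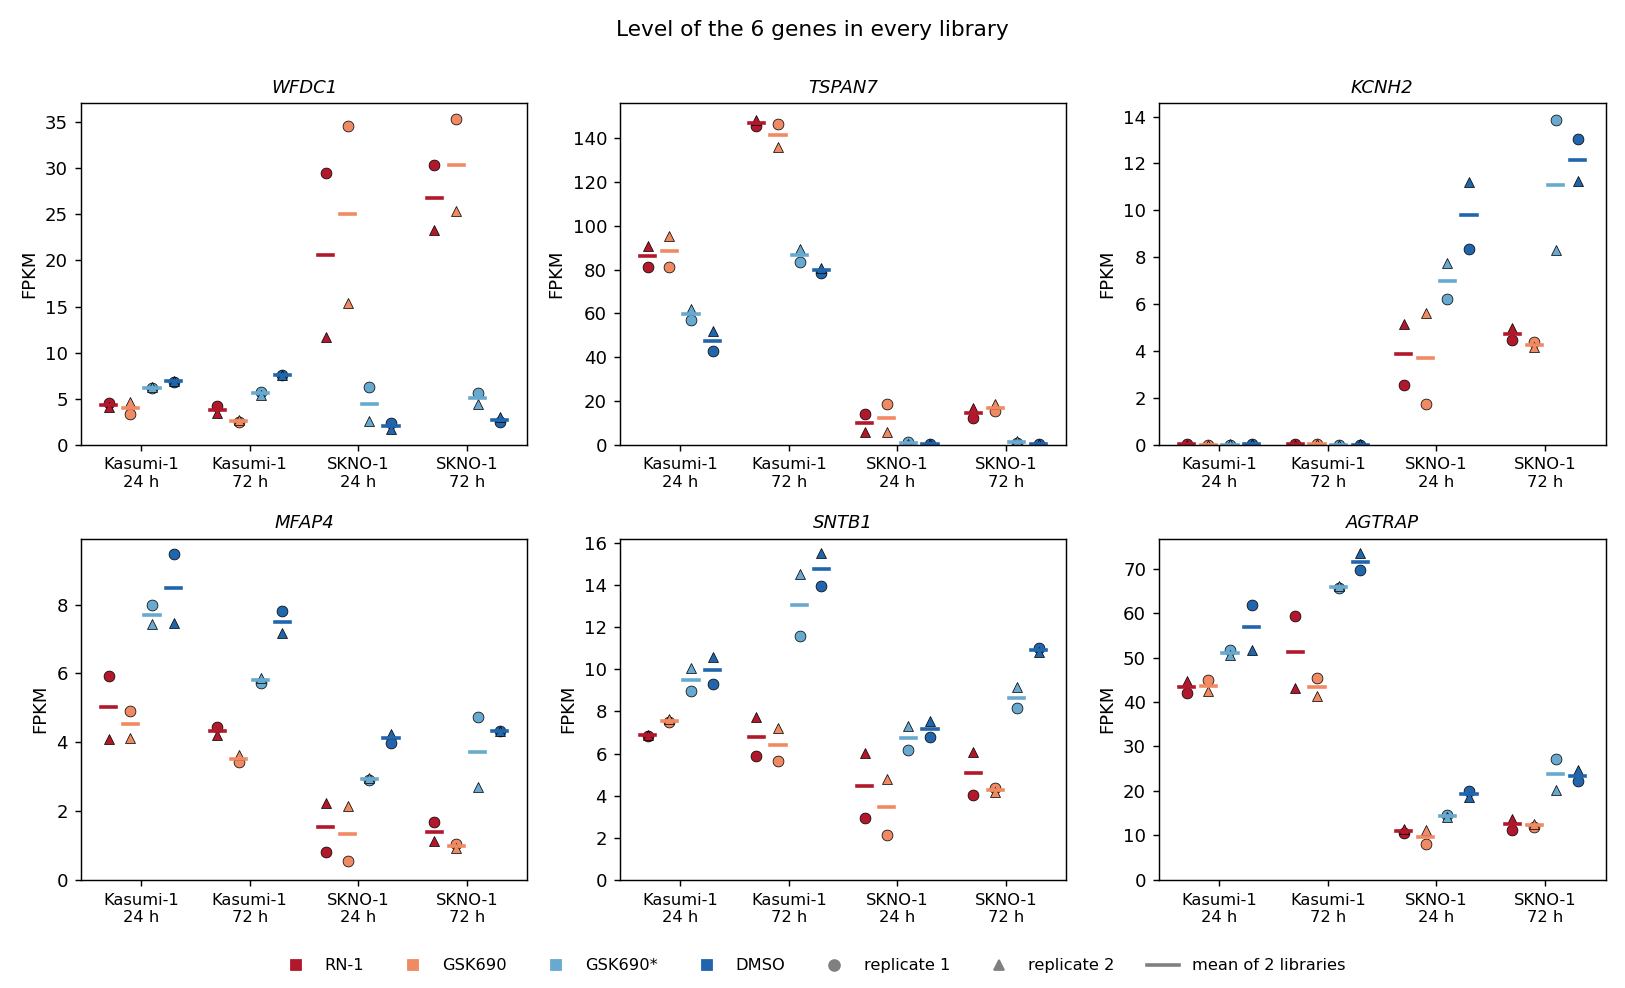
FPKM (y axis, from 0) of each of the 6 genes in all 32 libraries, by cell line and time; colours give the agent, circles and triangles replicates 1 and 2, and bars the mean of 2 libraries. TSPAN7 is far higher in Kasumi-1, KCNH2 is near 0 in Kasumi-1, and WFDC1 is higher with the inhibitors in SKNO-1 and lower with them in Kasumi-1.

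The 6 genes did not share a response selective for SKNO-1. KCNH2 was near 0 in Kasumi-1, WFDC1 differed in opposite directions in the lines, TSPAN7 was higher with the inhibitors in both, and MFAP4, SNTB1 and AGTRAP were lower with them in both. In SKNO-1, where the genes were chosen, all inhibitor libraries lay on the same side of all controls for each of the 6 at both times, against 15.2% of all genes at each time, a count the choice itself sets. In Kasumi-1 the sides were apart for 5 of the 6 at 24 h (32.6% of all genes) and for the same 5 at 72 h (28.7% of all genes), KCNH2 being the exception.

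WFDC1, the secreted protein, was low in SKNO-1 controls and higher with both inhibitors. At 24 h it stood in SKNO-1 at 29.5 and 11.7 FPKM with RN-1 and 34.6 and 15.4 with GSK690, against 6.29 and 2.55 with GSK690* and 2.39 and 1.67 with DMSO. At 72 h it stood at 30.3 and 23.3 FPKM with RN-1 and 35.4 and 25.3 with GSK690, against 5.67 and 4.46 with GSK690* and 2.43 and 2.99 with DMSO. Every inhibitor library was above every control, and both GSK690* means were above the DMSO means. Inhibitor libraries averaged 22.8 ± 11.0 and controls 3.23 ± 2.08 FPKM at 24 h (SD, n = 4 each), a 7.06-fold difference, and 28.6 ± 5.41 and 3.89 ± 1.47 FPKM at 72 h, a 7.35-fold one.

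In Kasumi-1, WFDC1 went the other way. At 24 h it stood at 4.52 and 4.14 FPKM with RN-1 and 3.32 and 4.63 with GSK690, against 6.14 and 6.28 with GSK690* and 6.87 in both DMSO libraries. Its 72 h levels stood at 4.17 and 3.46 FPKM with RN-1 and 2.50 and 2.71 with GSK690, against 5.77 and 5.41 with GSK690* and 7.53 and 7.59 with DMSO. All inhibitor libraries were below all controls. WFDC1 fell at 72 h (log2 -0.85 ± 0.24 SE, limma adjusted p = 0.0125). At 24 h its log2 change of -0.56 ± 0.24 SE did not pass (adjusted p = 0.109). It passed with the replicate number as a block (adjusted p = 0.00285) and when the 8 libraries of the set were fitted alone (SE 0.0924, adjusted p = 0.00663). Over both lines, the SKNO-1 inhibitor libraries were highest, the Kasumi-1 controls next, and Kasumi-1 inhibitor and SKNO-1 control libraries, between 1.67 and 6.29 FPKM, overlapped at the bottom. The highest SKNO-1 control, 6.29 FPKM, also lay within the Kasumi-1 controls (5.41 to 7.59 FPKM).

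TSPAN7, the tetraspanin, had the widest span of the 6, from near 0 to 149 FPKM. In SKNO-1 at 24 h it stood at 14.2 and 5.78 FPKM with RN-1 and 18.6 and 6.03 with GSK690, against 1.34 and 0.467 with GSK690* and 0.282 and 0.338 with DMSO. At 72 h it stood at 12.0 and 16.8 FPKM with RN-1 and 15.3 and 18.5 with GSK690, against 0.636 and 1.63 with GSK690* and 0.263 and 0.569 with DMSO. At 24 h the replicate 1 inhibitor libraries held more than 2 times the level of replicate 2, and at 72 h replicate 2 was the higher. Inhibitor and control means differed 18.4-fold at 24 h (11.2 ± 6.33 and 0.606 ± 0.494 FPKM) and 20.2-fold at 72 h (15.7 ± 2.73 and 0.774 ± 0.593 FPKM).

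Kasumi-1 already held TSPAN7 at a level that SKNO-1 never reached. Kasumi-1 libraries at 24 h had 81.4 and 91.0 FPKM with RN-1 and 81.5 and 95.4 with GSK690, against 56.9 and 62.2 with GSK690* and 42.7 and 52.0 with DMSO. At 72 h they had 146 and 149 FPKM with RN-1 and 147 and 136 with GSK690, against 83.7 and 89.6 with GSK690* and 78.3 and 81.0 with DMSO. The sides did not overlap, and TSPAN7 rose by log2 0.71 ± 0.25 at 24 h (limma adjusted p = 0.0464) and by 0.79 ± 0.25 at 72 h (adjusted p = 0.0227). The call at 24 h ended without any 1 of the 8 libraries (adjusted p = 0.0630 to 0.150). The 72 h call ended without DMSO, GSK690* or GSK690 replicate 1, or RN-1 or GSK690 replicate 2 (up to 0.0678). At 24 and 72 h the calls also ended with a pseudocount of 0.1 (0.128 and 0.0808), with all genes fitted unfiltered (0.0922 and 0.0505) and with DMSO alone as control (0.0530 and 0.0540). The lowest Kasumi-1 control, 42.7 FPKM, lay above the highest SKNO-1 inhibitor library, 18.6 FPKM.

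KCNH2, the potassium channel, reached 1 FPKM only in SKNO-1 libraries, in all 16 of them. At 24 h SKNO-1 had 2.56 and 5.17 FPKM with RN-1 and 1.75 and 5.62 with GSK690, against 6.23 and 7.74 with GSK690* and 8.34 and 11.2 with DMSO. At 72 h it had 4.49 and 4.96 FPKM with RN-1 and 4.38 and 4.18 with GSK690, against 13.9 and 8.30 with GSK690* and 13.0 and 11.2 with DMSO. The inhibitor mean was 2.22-fold lower at 24 h (3.77 ± 1.91 against 8.38 ± 2.09 FPKM) and 2.58-fold lower at 72 h (4.50 ± 0.333 against 11.6 ± 2.47 FPKM). At 24 h the 4 inhibitor libraries fell into a lower pair of replicate 1 and a higher pair of replicate 2, and at 72 h their SD was 0.333 FPKM. In Kasumi-1 no library exceeded 0.0397 FPKM, inhibitors and controls overlapped, and no change passed (log2 -0.01 and 0.02, limma adjusted p = 0.985 and 0.959). Values this near 0 left almost no room for a call on the log2(FPKM + 1) scale. The Kasumi-1 test therefore cannot decide whether KCNH2 responds there.

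MFAP4, the microfibril protein, was low in SKNO-1 and lower still with the inhibitors. At 24 h SKNO-1 had 0.805 and 2.24 FPKM with RN-1 and 0.550 and 2.14 with GSK690, against 2.89 and 2.95 with GSK690* and 3.99 and 4.25 with DMSO. SKNO-1 at 72 h had 1.69 and 1.12 FPKM with RN-1 and 1.05 and 0.939 with GSK690, against 4.75 and 2.71 with GSK690* and 4.34 in both DMSO libraries. The mean was 2.45-fold lower with the inhibitors at 24 h (1.43 ± 0.882 against 3.52 ± 0.700 FPKM) and 3.36-fold lower at 72 h (1.20 ± 0.334 against 4.03 ± 0.905 FPKM).

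In Kasumi-1 MFAP4 fell at both times. It stood at 5.93 and 4.11 FPKM with RN-1 and 4.91 and 4.12 with GSK690 at 24 h, against 7.98 and 7.44 with GSK690* and 9.47 and 7.47 with DMSO. At 72 h it stood at 4.45 and 4.22 FPKM with RN-1 and 3.43 and 3.63 with GSK690, against 5.73 and 5.88 with GSK690* and 7.82 and 7.17 with DMSO. The falls were log2 -0.66 ± 0.18 (limma adjusted p = 0.0140) and -0.63 ± 0.18 (adjusted p = 0.0152). At 24 h the call ended without DMSO or GSK690* replicate 1, or RN-1 or GSK690 replicate 2 (0.0510 to 0.0808), and at 72 h without DMSO replicate 1 (0.0558). With a pseudocount of 0.1 it ended at both times (0.0642 and 0.0633). Its neighbour MAPK7 averaged 2.10 ± 0.109 FPKM with inhibitors and 2.11 ± 0.147 FPKM in controls in Kasumi-1 at 24 h.

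SNTB1, the syntrophin, was lower with the inhibitors in both lines. In SKNO-1 at 24 h it stood at 2.92 and 6.02 FPKM with RN-1 and 2.12 and 4.77 with GSK690, against 6.18 and 7.31 with GSK690* and 6.80 and 7.57 with DMSO. Its 72 h levels stood at 4.06 and 6.09 FPKM with RN-1 and 4.38 and 4.17 with GSK690, against 8.15 and 9.14 with GSK690* and 11.0 and 10.8 with DMSO. The 24 h sides were parted by little, 6.02 FPKM for the highest inhibitor library and 6.18 for the lowest control, while the means differed 1.76-fold at 24 h and 2.09-fold at 72 h.

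The Kasumi-1 libraries showed a small SNTB1 difference at 24 h and a larger one at 72 h. With RN-1 it stood at 6.83 and 6.89 FPKM and with GSK690 at 7.48 and 7.63 at 24 h, against 8.96 and 10.1 with GSK690* and 9.30 and 10.6 with DMSO. Its 72 h levels were 5.86 and 7.73 FPKM with RN-1 and 5.62 and 7.23 with GSK690, against 11.6 and 14.5 with GSK690* and 14.0 and 15.5 with DMSO. SNTB1 fell at 72 h by log2 0.97 ± 0.17 (limma adjusted p = 0.000215), a call that stood without each of the 8 libraries. The 24 h change of -0.39 did not pass (adjusted p = 0.111), and passed with the replicate block (adjusted p = 0.0135) and in a fit of the 8 libraries of the set alone (adjusted p = 0.00771). MTBP, whose locus overlaps SNTB1, also fell in Kasumi-1 at 72 h (log2 -0.37, adjusted p = 0.00813), though not without RN-1 replicate 1 (0.0597) or in a fit of the 8 libraries alone (0.0609). In SKNO-1 MTBP fell at 24 h (log2 -0.33, limma adjusted p = 0.0367, 9.31 against 12.0 FPKM), a call lost in 9 of the other settings. It did not pass there at 72 h (adjusted p = 0.558). The part of shared reads was not tested.

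AGTRAP, the angiotensin receptor partner, was the most abundant of the genes that were lower. In SKNO-1 at 24 h it stood at 10.5 and 11.5 FPKM with RN-1 and 8.18 and 11.3 with GSK690, against 14.6 and 14.2 with GSK690* and 20.0 and 18.7 with DMSO. Its 72 h levels stood at 11.3 and 13.8 FPKM with RN-1 and 12.0 and 12.6 with GSK690, against 27.2 and 20.2 with GSK690* and 22.2 and 24.7 with DMSO. The mean was 1.63-fold lower with the inhibitors at 24 h and 1.90-fold lower at 72 h. The sides did not overlap, and at 24 h the GSK690* libraries lay between the inhibitor and the DMSO libraries.

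In Kasumi-1 every AGTRAP value was above the highest in SKNO-1. At 24 h it stood at 42.0 and 44.8 FPKM with RN-1 and 44.9 and 42.6 with GSK690, against 51.6 and 50.5 with GSK690* and 61.9 and 51.7 with DMSO. At 72 h it stood at 59.4 and 43.1 FPKM with RN-1 and 45.5 and 41.2 with GSK690, against 65.6 and 66.0 with GSK690* and 69.6 and 73.5 with DMSO. AGTRAP fell by log2 0.30 ± 0.10 at 24 h (limma adjusted p = 0.0463) and by 0.54 ± 0.10 at 72 h (adjusted p = 0.000604). The 72 h call stood without each library. The 24 h call ended without any 1 library other than DMSO replicate 2 (0.0762 to 0.202), after quantile normalization (0.102), after scaling by the median of ratios (0.0619), with a pseudocount of 0.1 (0.0519), with all genes fitted unfiltered (0.0734) and with DMSO alone as control (0.0506).

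**Figure D2:**
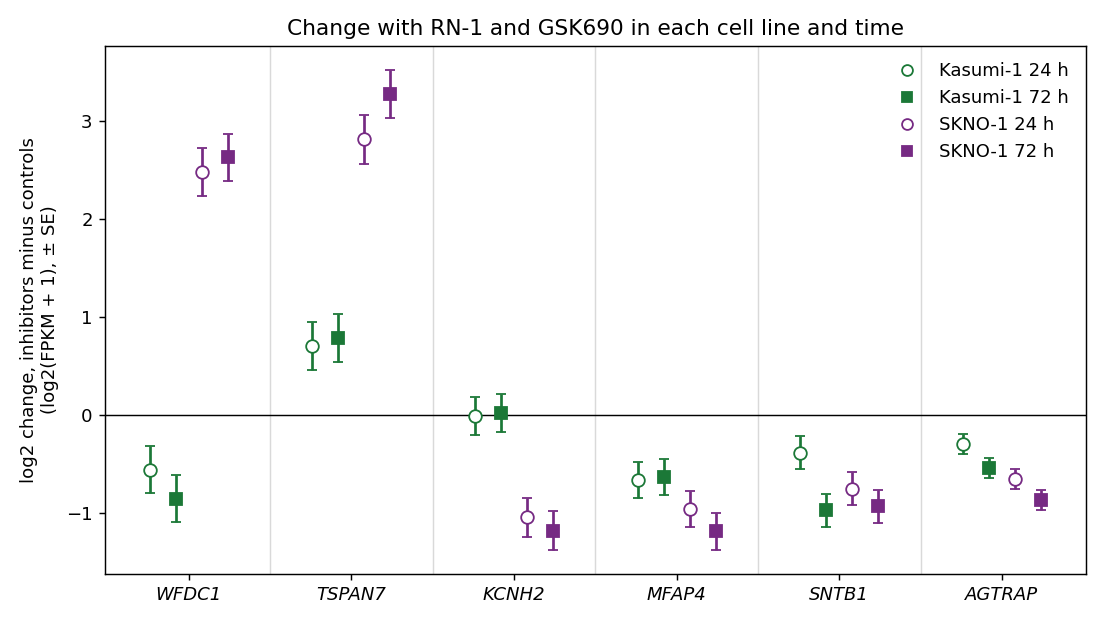
Log2 change (y axis, inhibitors minus controls on the log2(FPKM + 1) scale) of each gene in Kasumi-1 (green) and SKNO-1 (purple) at 24 h (open circles) and 72 h (filled squares). Bars are ± SE, from a spread shared by all groups of both lines. WFDC1 changes have opposite signs in the lines, KCNH2 is at 0 in Kasumi-1, and the other 4 genes have the same sign in both; the SKNO-1 values chose the genes.

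Side by side on the log2(FPKM + 1) scale, the changes in Kasumi-1 at 24 and 72 h and in SKNO-1 at 24 and 72 h were -0.56, -0.85, 2.48 and 2.63 for WFDC1 and 0.71, 0.79, 2.81 and 3.27 for TSPAN7. They were -0.01, 0.02, -1.04 and -1.18 for KCNH2 and -0.66, -0.63, -0.96 and -1.19 for MFAP4. For SNTB1 they were -0.39, -0.97, -0.75 and -0.93, and for AGTRAP -0.30, -0.54, -0.65 and -0.87. In the Kasumi-1 tests 3 of the 6 genes passed at 24 h (1 up, 2 down, against 20.9% of all genes called, 9.69% up and 11.2% down) and 5 of the 6 at 72 h (1 up, 4 down, against 25.7%, 13.0% up and 12.7% down). KCNH2, near 0 in Kasumi-1, is counted among the 6 though it had almost no room to pass. At 24 h 1 gene passed with all genes fitted unfiltered (2486 of all genes), 1 with DMSO as the only control (16.3% of all genes) and none with a pseudocount of 0.1 (2459 of all genes). With the replicate block 5 passed at 24 h, and 3733 of all genes, against 2479 without it. The median change of all genes was between -0.01 and -0.02 in the 4 comparisons.

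The difference between the lines in the response, Kasumi-1 minus SKNO-1, was log2 -3.03 and -3.48 for WFDC1 at 24 and 72 h, -2.10 and -2.48 for TSPAN7, and 1.03 and 1.20 for KCNH2 (SE 0.34, 0.35 and 0.28). For MFAP4 it was 0.29 and 0.56, for AGTRAP 0.35 and 0.33, and for SNTB1 0.37 and -0.04 (SE 0.26, 0.15 and 0.24). These differences hold the values that chose the genes and were not tested. They are on the log2(FPKM + 1) scale, which understates changes of low genes. With a pseudocount of 0.1 the TSPAN7 changes at 24 and 72 h were 0.72 and 0.79 in Kasumi-1 and 4.03 and 4.39 in SKNO-1. Those of MFAP4 were -0.76 and -0.74 in Kasumi-1 and -1.43 and -1.67 in SKNO-1.

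In SKNO-1 at 24 h the size of the response also differed between libraries. Both replicate 1 inhibitor libraries lay farther from the controls than both replicate 2 libraries for all 6 genes. At 72 h the SKNO-1 names begin with CM for 2 libraries (DMSO and RN-1 replicate 1) and with CP for the other 6. Within the 6 CP libraries the log2 changes were 2.48 for WFDC1, 3.31 for TSPAN7, -1.10 for KCNH2, -1.27 for MFAP4, -0.80 for SNTB1 and -0.84 for AGTRAP, close to those over all 8. Time goes with the name prefix, so time and prefix cannot be told apart.

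The sum of 5 monocyte markers (CD14, FCGR3A, CSF1R, CD163 and LYZ) was higher with the inhibitors beside these genes, and LYZ, lysozyme, made up most of it. Over all libraries LYZ averaged 54.1 FPKM in Kasumi-1 and 81.4 in SKNO-1, CSF1R 5.64 and 0.549, and each of the other 3 at most 0.0595. The 5 genes summed to 84.8 to 142 FPKM in SKNO-1 inhibitor libraries at 24 h, against 35.3 to 55.3 in controls, and to 113 to 153 at 72 h, against 39.6 to 57.8. In Kasumi-1 they summed to 101 to 157 FPKM at 24 h, against 9.62 to 29.1, and to 63.2 to 91.9 at 72 h, against 10.7 to 21.3. Of the 5, 1 or 2 reached a mean of 1 FPKM, and FCGR3A is listed at 0 in every Kasumi-1 library. The part of this shift in the 6 genes was not tested.

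The isomer's difference, GSK690* minus DMSO, was not the one on which the genes were chosen. In SKNO-1 both agents were controls of that choice. The written choice did not use the Kasumi-1 libraries. Their tests still share the SKNO-1 spread, and earlier results of these data were known. Against DMSO, none of the 6 genes passed in any of the 4 sets (limma, all adjusted p = 1), and 0.0% of all genes were called in each. Unadjusted p was under 0.05 for 305 and 111 genes in Kasumi-1 at 24 and 72 h and for 218 and 268 in SKNO-1. In SKNO-1 the isomer's WFDC1 differences were log2 0.76 (95% interval 0.05 to 1.47) and 0.71 (-0.00 to 1.42) at 24 and 72 h, and those of TSPAN7 0.50 (-0.23 to 1.23) and 0.56 (-0.17 to 1.29). Over the mean of both times in SKNO-1, added after seeing the data, WFDC1 differed by 0.73 and TSPAN7 by 0.53, and neither passed after adjustment. AGTRAP differed in SKNO-1 by -0.40 at 24 h (-0.71 to -0.10) and by 0.00 at 72 h (-0.30 to 0.31). These libraries entered the choice, so their values are a description and no test of an isomer effect. In Kasumi-1 the differences of the 6 genes ran from -0.38 to 0.33. The isomer's effect, Kasumi-1 minus SKNO-1, passed for none of the 6 genes and for 0.0% of all genes at either time. At 72 h it was -1.08 for WFDC1. The SKNO-1 libraries of the choice are part of this difference, so it is a description too.

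**Figure D3:**
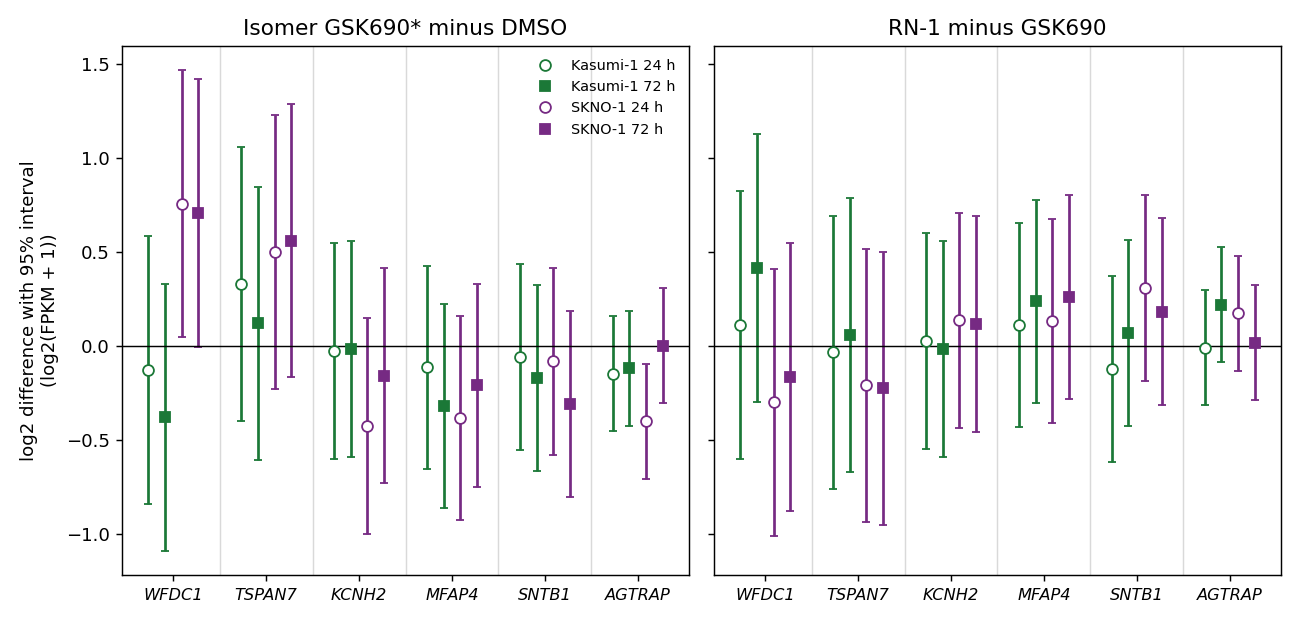
Log2 difference with its 95% interval (y axis, log2(FPKM + 1) scale) of GSK690* minus DMSO (left) and RN-1 minus GSK690 (right) for each gene, line and time. Open circles are 24 h and filled squares 72 h, and intervals rest on a spread shared by all groups of both lines. The intervals of WFDC1 and AGTRAP for GSK690* minus DMSO in SKNO-1 at 24 h do not include 0, all others do, and none passed after adjustment. The SKNO-1 libraries entered the choice of genes.

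RN-1 and GSK690, given at the same dose and times, were not told apart by any of the 6 genes. The SKNO-1 libraries of both entered the choice of genes. Those of Kasumi-1 did not by the written choice, with the same limits as for the isomer. The 6 differences ran from log2 -0.12 to 0.11 in Kasumi-1 at 24 h and from -0.02 to 0.41 at 72 h, and from -0.30 to 0.31 and -0.23 to 0.26 in SKNO-1 (limma adjusted p = 0.708 to 1). Over all genes, 0.0%, 0.00841%, 0.0% and 0.0% were called in these 4 sets. The intervals leave room for differences. For TSPAN7 in SKNO-1 at 24 h the interval was -0.94 to 0.52, and for AGTRAP, with the narrowest interval there, -0.13 to 0.48. These 2 pairs of compounds were compared in 4 sets each, with p adjusted over all genes of a set.

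Each inhibitor against its own control was tested in Kasumi-1. For RN-1 minus DMSO none of the 6 passed at 24 h (9.08% of all genes called), and SNTB1 and AGTRAP passed at 72 h (log2 -1.02 and -0.49, adjusted p = 0.00658 and 0.0321; 12.1% of all genes). The SNTB1 call ended without RN-1 replicate 1 or DMSO replicate 2 (up to 0.0966), and the AGTRAP call without RN-1 replicate 2 or either DMSO library (up to 0.285). For GSK690 minus GSK690* none passed at 24 h (3.94% of all genes), and the same 2 genes passed at 72 h (-0.92 and -0.59, adjusted p = 0.0166 and 0.0128; 9.75% of all genes). Here the SNTB1 call ended without GSK690 replicate 1 or GSK690* replicate 2 (up to 0.151), and the AGTRAP call without GSK690 replicate 2 or either GSK690* library (up to 0.137). With the replicate block at 24 h 4 of the 6 passed for RN-1 minus DMSO (WFDC1, TSPAN7, MFAP4 and SNTB1; 2348 of all genes) and MFAP4 for GSK690 minus GSK690* (1505 of all genes). In SKNO-1, where no test applies, RN-1 minus DMSO was 2.71 and 2.90 for WFDC1 at 24 and 72 h, and GSK690 minus GSK690* 2.25 and 2.36. For TSPAN7 they were 2.96 and 3.44 with RN-1 and 2.66 and 3.10 with GSK690. Between 24 and 72 h the Kasumi-1 response of none of the 6 genes changed beyond the threshold (0.202% of all genes did). The nearest was SNTB1, with a difference of -0.59 (unadjusted p = 0.0226, adjusted p = 0.825).

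Without inhibitors, the lines differed most in TSPAN7 and KCNH2. Control levels on the log2(FPKM + 1) scale, Kasumi-1 minus SKNO-1, differed by 5.12 and 5.62 for TSPAN7 at 24 and 72 h and by -3.18 and -3.63 for KCNH2. The added 1 bounds such values where a line is near 0, so their sizes cannot be ranked. KCNH2 controls averaged 0.0172 and 0.00561 FPKM in Kasumi-1, against 8.38 and 11.6 in SKNO-1. TSPAN7 controls averaged 53.5 and 83.2 FPKM in Kasumi-1, against 0.606 and 0.774 in SKNO-1. AGTRAP was higher in Kasumi-1 by 1.63 and 1.51, MFAP4 by 1.01 and 0.61, WFDC1 by 0.94 and 0.67 and SNTB1 by 0.43 and 0.47. The SKNO-1 controls entered the choice of genes, so these values have no test. In order of level, TSPAN7 ran from Kasumi-1 inhibitors at 72 h down to SKNO-1 controls, with overlap between the Kasumi-1 inhibitors at 24 h (81.4 to 95.4 FPKM) and the Kasumi-1 controls at 72 h (78.3 to 89.6). KCNH2 ran from SKNO-1 controls at 72 h and 24 h, which overlapped, to the inhibitor libraries, which overlapped with each other. MFAP4 ran from Kasumi-1 controls to SKNO-1 inhibitors, and the Kasumi-1 inhibitor libraries (3.43 to 5.93 FPKM) overlapped the SKNO-1 controls (2.71 to 4.75). For SNTB1 the Kasumi-1 inhibitor libraries (5.62 to 7.73 FPKM) overlapped the SKNO-1 controls at 24 h (6.18 to 7.57) in the same way.

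Within a line, several of the 6 genes followed each other over the 8 group means. In SKNO-1 WFDC1 and TSPAN7 had r = 0.996 and KCNH2 and AGTRAP r = 0.985. In Kasumi-1 WFDC1 followed MFAP4 (r = 0.964) and ran against TSPAN7 (r = -0.803). Both genes of a pair were read in the same libraries and were chosen for changes in them, so r is a description. Over all 16 group means the genes most like WFDC1 were TBC1D30 (r = 0.939), GFI1B (0.912) and ZFAND4 (0.909). GFI1B, a repressor partner of KDM1A, had r = 0.976 with WFDC1 within SKNO-1 and -0.933 within Kasumi-1, where it averaged 0.203 ± 0.137 FPKM with the inhibitors at 72 h, against 0.0200 ± 0.0276 in controls. In SKNO-1 it averaged 14.9 ± 5.11 FPKM with the inhibitors at 72 h, against 0.0917 ± 0.108 in controls.

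The genes most like TSPAN7 were LILRA2, SPTBN1 and JAK3 (r = 0.993, 0.986 and 0.985), and those most like KCNH2 were MRAP2, APLP2 and STON1 (0.996, 0.995 and 0.992). For MFAP4 they were IDI1, PXK and FGFR1OP (0.944, 0.943 and 0.942), for SNTB1 MTMR4, MLEC and ALDH5A1 (0.953, 0.948 and 0.938), and for AGTRAP RAB6B, CEBPD and TMEM97 (0.991, 0.989 and 0.986). These r span both lines. Within Kasumi-1 the r of MRAP2, APLP2 and STON1 with KCNH2 was 0.145 to 0.234.

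In the families of the 6 genes, calls went in both directions. Over all genes, 9.08% were called in SKNO-1 at 24 h and 11.1% at 72 h, and 62.1% and 62.4% of the called genes rose. In Kasumi-1 at 72 h 25.7% were called, 13.0% up and 12.7% down. For the share that rose in SKNO-1, scaling by the median of ratios gave 73.5% at 24 h. A fit of the 8 libraries alone gave 88.8% and 87.2% of 160 and 400 calls at 24 and 72 h, and the replicate block 52.0% and 50.9% of 2306 and 2715 calls, against 1080 and 1316 without either. Of 18 tested WAP domain and other protease inhibitors, secreted or intracellular and without WFDC1, SKNO-1 had 2 higher and 0 lower at 24 h and 3 higher and 1 lower at 72 h, and 8 rose and 1 fell in Kasumi-1 at 72 h. SERPINB8, an intracellular serpin, rose in all 4 sets, to 2.34 ± 0.467 FPKM with inhibitors in SKNO-1 at 72 h, against 0.168 ± 0.0820 in controls (limma adjusted p = 4.21e-10). PI16, a peptidase inhibitor, rose in Kasumi-1 to 15.9 ± 2.24 FPKM at 72 h, against 0.0368 ± 0.0526 (adjusted p = 2.52e-16), and stood at 0.0919 and 0.0218 FPKM in SKNO-1. SERPINA1, alpha-1-antitrypsin, fell in Kasumi-1 at 72 h to 14.6 ± 2.72 FPKM, against 30.7 ± 3.86.

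Of 18 tested tetraspanins other than TSPAN7, SKNO-1 had 1 higher and 2 lower at 24 h and 1 of each at 72 h, and 6 rose and 1 fell in Kasumi-1 at 72 h. CD53, a leukocyte tetraspanin, rose in all 4 sets, to 94.2 ± 3.02 FPKM with inhibitors in SKNO-1 at 72 h, against 43.9 ± 9.27 in controls (limma adjusted p = 5.93e-08). CD82 rose in Kasumi-1 at 72 h to 7.06 ± 0.980 FPKM, against 2.57 ± 0.293 (adjusted p = 0.00304). Of 11 tested voltage-gated potassium channel genes other than KCNH2, SKNO-1 had 1 higher and 2 lower at each time, and 0 rose and 2 fell in Kasumi-1 at 72 h. KCNH1, a relative of KCNH2, fell in SKNO-1 at 72 h to 0.427 ± 0.0850 FPKM, against 1.00 ± 0.349 (adjusted p = 0.00359), and was at 0 in Kasumi-1 inhibitor libraries. KCNQ1, a cardiac and epithelial channel, rose in SKNO-1 at 72 h to 3.35 ± 0.937 FPKM, against 1.18 ± 0.644 (adjusted p = 0.00195). The KCNH1 call ended within the 6 CP libraries or in a fit of the 8 libraries alone, and the KCNQ1 call in a fit of the 8 alone (0.0561 to 0.0964 over these).

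Of 15 tested microfibril and fibrinogen-related genes other than MFAP4, SKNO-1 had 2 higher and 0 lower at 24 h and 2 of each at 72 h. In Kasumi-1 at 72 h 4 of them rose and 1 fell. LOXL3, a lysyl oxidase relative, rose in all 4 sets, to 48.0 ± 1.26 FPKM with inhibitors in SKNO-1 at 72 h, against 28.4 ± 7.20 in controls (limma adjusted p = 5.57e-05, lost in a fit of the 8 libraries alone, 0.0604). LTBP3, which binds latent TGF-beta, rose in Kasumi-1 at 72 h to 7.53 ± 1.28 FPKM, against 2.36 ± 0.485 (adjusted p = 5.53e-06). Of 8 tested dystrophin complex genes other than SNTB1, 1 rose in SKNO-1 at 24 h, 2 rose at 72 h and none fell. In Kasumi-1 at 72 h 3 of them rose and 1 fell. SGCB, the beta-sarcoglycan, rose in all 4 sets, to 5.03 ± 0.416 FPKM with inhibitors in SKNO-1 at 72 h, against 1.82 ± 0.351 in controls (adjusted p = 3.92e-07), the reverse of SNTB1. Of 13 tested renin-angiotensin genes other than AGTRAP, none passed in SKNO-1 at 24 h and 1 rose at 72 h. It was CPA3, a mast cell carboxypeptidase, at 29.6 ± 7.87 FPKM with inhibitors, against 12.4 ± 5.64 (adjusted p = 0.00947). That call ended without DMSO or GSK690* replicate 1 or GSK690 replicate 2, within the 6 CP libraries and in a fit of the 8 libraries alone (0.0511 to 0.0866). In Kasumi-1 at 72 h 2 of these 13 genes rose and 2 fell. ANPEP, the aminopeptidase CD13, rose there to 8.51 ± 2.66 FPKM, against 2.52 ± 1.23 (limma adjusted p = 0.000117). CTSG fell there to 59.4 ± 8.65 FPKM, against 103 ± 7.62 (limma adjusted p = 0.00496).

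Of 56 genes within 250 kb of the 6 loci, 35 were tested, and 4 of these passed in SKNO-1 at each time (2 up, 2 down, 11.4%, against 9.08% and 11.1% of all genes). In Kasumi-1 5 passed at 24 h (14.3%, against 20.9%) and 9 at 72 h (25.7%, against 25.7%). COL14A1, a collagen gene 163709 bases from SNTB1, rose in SKNO-1 at 72 h by log2 1.17 (2.59 against 0.600 FPKM, limma adjusted p = 0.000620), while SNTB1 was lower. MID1IP1, 112515 bases from TSPAN7, fell in SKNO-1 at 72 h by log2 0.42 (15.0 against 20.5 FPKM, adjusted p = 0.0187), while TSPAN7 was higher. In Kasumi-1 at 72 h MID1IP1 fell as well (log2 -0.62, 20.6 against 31.7 FPKM, limma adjusted p = 0.000376). On either side of AGTRAP, FBXO6 fell by log2 0.47 and PLOD1, a collagen lysyl hydroxylase, rose by 0.34 at 72 h (adjusted p = 0.00458 and 0.0107). In SKNO-1 at 72 h the MID1IP1 call ended without 4 of the 8 libraries, DMSO replicate 2, GSK690* replicate 1, RN-1 replicate 1 or GSK690 replicate 1, and with DMSO alone as control. That of PLOD1 ended without DMSO replicate 1 or GSK690* replicate 2 and within the 6 CP libraries. In a fit of the 8 libraries alone the MID1IP1, PLOD1 and FBXO6 calls all ended.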

How the data were processed

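RNA-seq of 32 libraries was analysed. The authors deposited FPKM per gene and library. Per the submitters' processing notes, TopHat 1.4.1, Cufflinks and hg19 were used, in a role and order not given in the sources used here; nor is the strand of the libraries. Trizol or RNeasy Plus served for RNA extraction, per the labels' protocols. Samples were grouped by their titles, and 0 columns belonged to no sample. The table holds 30 genes with missing cells, none of them among the 6.

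Values were taken as log2(FPKM + 1), so fold changes of low genes are understated, and modelled by 16 group means in limma 3.58.1 (R 4.3.3) with a variance trend (16 residual and 5.23 prior degrees of freedom). The 11890 genes that reached 1 FPKM in 2 or more libraries were tested 2-sided with Benjamini-Hochberg adjustment over all genes of a contrast and a threshold of 0.05. Figures came from matplotlib 3.10.9 and tables from pandas 2.3.3 under Python 3.11.15. The fit was tested on simulated data. The labels number the replicates 1 and 2. Deviations of same-numbered libraries from their group means correlated across genes between every 2 agents of a set, with r of 0.133 to 0.450 in Kasumi-1 at 24 h, 0.294 to 0.525 in SKNO-1 at 24 h, 0.144 to 0.697 in SKNO-1 at 72 h and 0.0431 to 0.481 in Kasumi-1 at 72 h.

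The 6 genes and the lists were chosen with earlier results of these data known. Named in addition are the 3 genes with the highest Pearson r of group means per member, up to 3 genes of each family list with the largest change among those called, and neighbours within 250 kb called in SKNO-1, at most 3 per member. Alternatives were other pseudocounts, filters, scalings, fits, a replicate block, the name prefix, DMSO as only control and each library left out. The mean of 24 and 72 h was added after seeing the data.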

Additional observations from a re-analysis of the deposited data

Results flagged for a closer look

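WFDC1 went in opposite directions in the lines: every inhibitor library was below every control in Kasumi-1 and above every control in SKNO-1. The difference of the changes, Kasumi-1 minus SKNO-1, was log2 -3.03 at 24 h and -3.48 at 72 h, and was not tested because the SKNO-1 change chose the gene.

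Of 48 sides of 4 libraries, 3 held a library far from its fellows, and chance alone flags about 1 in 20 such groups. AGTRAP stood at 61.9 FPKM in DMSO replicate 1 of Kasumi-1 at 24 h, against 50.5 to 51.7 in the other controls. Without that library its change there was log2 -0.23 (limma adjusted p = 0.202). SNTB1 stood at 6.09 FPKM in RN-1 replicate 2 of SKNO-1 at 72 h. KCNH2 stood at 0.0397 FPKM in RN-1 replicate 1 of Kasumi-1 at 24 h, where the other inhibitor libraries were at 0.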

How the results depend on the processing

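Depth is unknown, so no counting error is given, and values under 1 FPKM (KCNH2 in Kasumi-1, TSPAN7 in SKNO-1 controls) are the least certain. No called direction of a named gene reversed. Of 917 values of the 6 genes that passed neither way, 55 changed sign. The causes of the changes below were not tested.

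For inhibitors minus controls, genes called in Kasumi-1 at 24 h numbered 2479, and 1498 to 2095 without 1 library. Of the 6 genes 3 were called, against 0 with a pseudocount of 0.1, 1 unfiltered, 5 in a fit of the 8 libraries, 1 with DMSO alone as control and 0 to 2 without 1 library. Over all genes these settings called 2459 with the pseudocount of 0.1, 2486 unfiltered, 3339 in the fit of 8 and 1942 with DMSO alone. At 72 h 3052 genes were called (2022 to 2852 without 1 library). Of the 6 genes 5 were called, against 3 with a pseudocount of 0.1 (2933 of all genes) and 3 to 5 without 1 library. In SKNO-1 at 24 h 1080 genes were called, against 160 in a fit of 8 libraries, 668 with DMSO alone and 387 to 1451 without 1 library. At 72 h 1316 were called, against 400 in a fit of 8, 620 within the 6 CP libraries and 860 to 1602 without 1 library.

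For GSK690* minus DMSO the count of 0 became, in Kasumi-1 at 24 h, 8 unfiltered, 1 with scaling by the median of ratios, 2 over the mean of both times and 0 to 2 without 1 library. In Kasumi-1 at 72 h it became 1 with a pseudocount of 0.1, 3 unfiltered and 2 over both times. In SKNO-1 it became 0 to 2 without 1 library at 24 h, and at 72 h 1 unfiltered and 1 within the CP libraries. For RN-1 minus GSK690, Kasumi-1 at 24 h gave 1 with a pseudocount of 0.1 and 9 unfiltered. The single gene of Kasumi-1 at 72 h became 0 with a pseudocount of 0.1, with quantile normalization, in a fit of 8 or over both times, 5 unfiltered, and 0 to 92 without 1 library. SKNO-1 gave 4 unfiltered, 1 over both times and 0 to 1 without 1 library at 24 h, and 3 unfiltered and 1 over both times at 72 h. None of the 6 genes was among the calls of either comparison under any setting run.

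The 24 genes whose Kasumi-1 response changed with time became 15 with a pseudocount of 0.1, 56 unfiltered, 40 in a fit of 16 libraries and 14 to 30 without 1 library. For RN-1 minus DMSO in Kasumi-1, the 1079 genes of 24 h became 1650 in a fit of 8 (5 of the 6 genes, against 0) and 273 to 510 without 1 library. The 1433 of 72 h became 892 in a fit of 8 and 587 to 1687 without 1 library, with 1 of the 6 genes called unfiltered, 4 in a fit of 8 and 0 to 1 without 1 library, against 2. For GSK690 minus GSK690*, the 468 genes of 24 h became 130 to 299 without 1 library, with 1 of the 6 called in a fit of 8, against 0. The 1159 of 72 h became 700 in a fit of 8 and 391 to 593 without 1 library, with 4 and 0 to 1 of the 6 called, against 2.

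With a replicate block, inhibitors minus controls called 3733 genes in Kasumi-1 at 24 h (5 of the 6 genes), 2306 in SKNO-1 at 24 h and 2715 at 72 h. The block gave 3 genes for GSK690* minus DMSO in Kasumi-1 at 24 h, 3 for RN-1 minus GSK690 at 72 h and 129 for time. For RN-1 minus DMSO it gave 2348 and 2548 genes (4 and 5 of the 6), and for GSK690 minus GSK690* 1505 and 2466 (1 and 5 of the 6). It ended no call of the 6 genes in Kasumi-1.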
